A study of Mus musculus with 12 samples.

Results

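The early response of mouse liver to acetaminophen (APAP) with the gene Pml intact was described by comparing wt arrays from 2 h after the drug with wt arrays from untreated mice. These were 4 of the 12 arrays of the series, 2 in each group, chosen by their labels. All mice were female BALB/cByJ mice aged 2.5 months. The treated mice had received 300 mg/kg APAP in warmed PBS by intraperitoneal injection and were killed 2 h later, and the controls were killed without treatment. The other 8 arrays came from wt mice at 6 h and from Pml KO mice that were untreated or killed at 2 h or 6 h after the same dose, again 2 arrays in each group. Total RNA of whole liver was measured on Mouse Gene 1.1 ST arrays of Affymetrix, 1 for each sample. The sources used here do not give the deleted part of Pml. The sources used here do not say whether each sample came from a separate animal, so the p-values measure only the spread between these samples. They also give no vehicle injection of the untreated mice and no time of day of killing. Effects of injection or of the hour therefore cannot be told apart from those of APAP.

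APAP is made harmless in hepatocytes by glucuronidation and sulfation, while a smaller part is oxidised, mainly by CYP2E1 around the central vein, to a reactive quinone imine. That metabolite consumes glutathione and binds mitochondrial proteins, and the kinase JNK is activated before hepatocytes die. PML builds the nuclear bodies named after it, and the series sets mice without Pml against wt mice. The comparison of treated with untreated wt liver asks which transcripts change in the first hours of this injury while Pml is present.

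The arrays were even in overall level, with a median intensity of 87.3 and 87.2 in the untreated group and 90.1 and 86.9 at 2 h. Log2 values correlated at 0.9929 between the untreated arrays, at 0.9939 between the 2 h arrays and at 0.9652 to 0.9705 between the groups, across probe sets that are not independent. The tissue matched its label by its markers. Alb, the gene for serum albumin, stood at a log2 intensity of 13.48 and 13.42 untreated and at 13.40 and 13.44 at 2 h. Of the 9 measured hepatocyte markers Tat, a tyrosine-degrading enzyme, was called (0.55 ± 0.11), though not without untreated replicate 2 or 2 h replicate 1 (adjusted p of 0.0628 to 0.0741). Their mean log2 was 12.82 to 12.91 untreated and 12.91 to 12.94 at 2 h.

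Pml itself stood at 8.18 and 8.46 in untreated wt liver and at 7.82 and 7.92 at 2 h. The arrays of both groups did not overlap, but the difference of -0.45 ± 0.24 (standard error of the fit, as after every ± here) did not pass the test (adjusted p = 0.248).

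A total of 17052 genes were tested with limma, and a gene was called when its Benjamini-Hochberg adjusted p was under 0.05. Of these, 1114 rose (6.53%) and 1052 fell (6.17%), and 2166 were called in all (12.7%). Counts of list members below are to be read beside these shares. The lists were chosen with earlier results of these data known, so their counts are descriptions only. Most changes were small, with a median log2 difference of 0.72 among the genes called higher and of -0.65 among those called lower. At least 2-fold changes were called in 326 genes that rose (1.91%) and 201 that fell (1.18%). The large ones were mostly rises: 99 genes rose and 30 fell at least 4-fold, and 15 rose and 1 fell at least 16-fold. The filter, a mean log2 of at least 5 over all arrays, let in genes that were low untreated and high after APAP. Myom1 (1.27 and 1.16 untreated) and Fos (4.35 and 3.93) are examples. Genes that start so low have little room to fall. How much of the excess of large rises comes from this was not tested. The median over all tested genes was 0.02, and under other settings it lay within -0.02 to 0.03. Higher calls did not outnumber lower ones under every setting: a fit of the compared groups alone called 1245 higher and 1263 lower, and quantile normalization 1104 and 1140. Arrays of the groups did not overlap in 60.8% of all tested genes, so a lack of overlap alone sets a gene little apart. It held for all 2166 called genes, so where it is stated below for a called gene it adds nothing to the call. The counts rested on all 4 arrays: limma called 1163 genes without untreated replicate 1, 813 without untreated replicate 2, 800 without 2 h replicate 1 and 915 without 2 h replicate 2. Of the 225 called genes that the rule for naming genes covers, the call of 103 ended without at least 1 of these 4 arrays. Below, such calls are marked, also for 5 called genes named outside that rule after their values were seen (Egr1, Nr4a3, Acaca, Insig1 and Nr3c1), and counts of list members without 1 array are given in that same order of arrays.

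**Figure D1:**
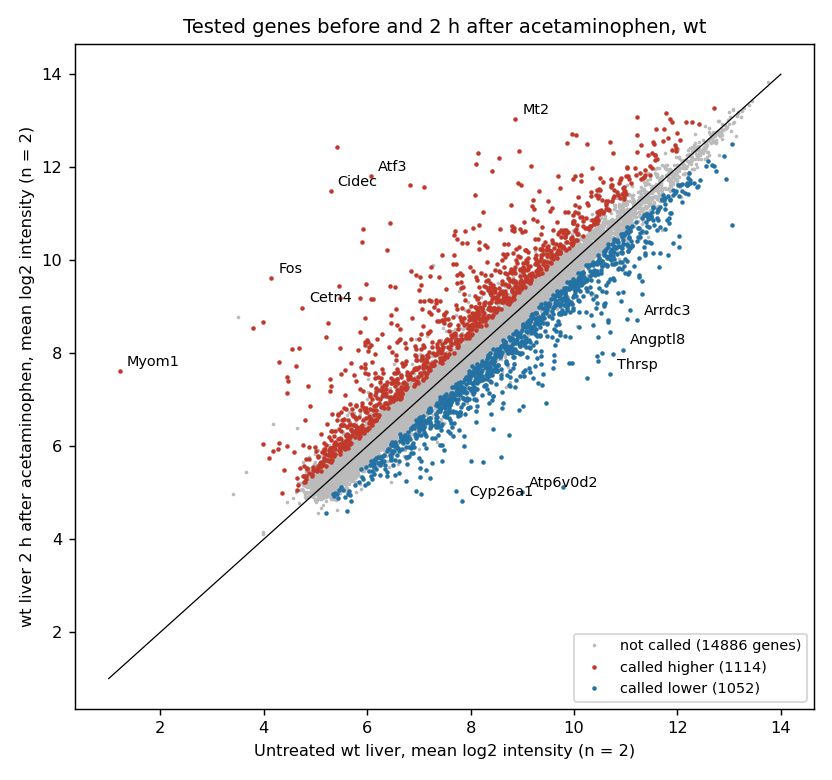
Mean log2 intensity of each of the 17052 tested genes in untreated wt liver (horizontal axis) and in wt liver 2 h after APAP (vertical axis), each the mean of 2 arrays. Red points are the 1114 genes called higher, blue points the 1052 called lower and grey points the rest, and the strongest rises, such as Cidec and Atf3, lie farther from the diagonal than the strongest falls.

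The largest rises joined stress regulators with single genes of other kinds. Cidec, which makes lipid droplets fuse, stood at 5.02 and 5.56 in the untreated arrays and at 11.50 and 11.48 at 2 h, a rise of 6.20 ± 0.28 on the log2 scale or 73.4-fold (adjusted p = 1.95e-06). Myom1, which encodes the sarcomere protein myomesin, went from 1.27 and 1.16 to 7.89 and 7.32 (6.39 ± 0.40). Its untreated values were close to 0 on the linear scale, and with log2 of the value plus 16 the rise was 3.53. Ciart, a repressor within the circadian clock, went from 3.90 and 3.67 to 9.36 and 7.74 (4.76 ± 0.67), so its arrays at 2 h differed from each other more than those of most of these genes. Cetn4, a centrin gene, stood at 4.64 and 4.85 and then at 8.93 and 9.02 (4.23 ± 0.17), while a second probe set of the gene, with a mean log2 of 5.82, differed by 0.64. The rest of the 15 largest rises were Atf3, Fos, Btg2, Nr4a1, Maff, Gadd45g, Cdkn1a, Gadd45b, Mt2, Jun and Dusp8, at 5.73 down to 4.0, which are taken up with their groups below. None of the 15 calls ended when 1 array of the compared groups was left out.

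Predicted genes, microRNAs, small nucleolar RNAs and olfactory and vomeronasal receptors were counted and not named by the rule, with 73 called higher and 37 lower. The largest rise and the largest fall of all genes with separate arrays were among them, and these 2 genes were picked after their values were seen. Gm15441, a long noncoding RNA gene, stood at 5.30 and 5.53 untreated and at 12.49 and 12.39 at 2 h, which is the largest rise of all (7.02 ± 0.26, adjusted p = 4.73e-07). The probe set for Mir122, the gene of the main liver microRNA, stood at 10.57 and 9.02 and then at 5.27 and 4.97 (-4.68 ± 0.79, adjusted p = 0.00426). In KO liver the same differences were 6.70 for Gm15441 and -3.35 for Mir122.

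The 15 largest falls held genes of lipid synthesis, of glycogen and retinoid metabolism and of the endoplasmic reticulum. Atp6v0d2, which encodes part of the proton pump of acidic organelles, stood at 8.98 and 9.0 untreated and at 6.20 and 3.82 at 2 h (-3.98 ± 0.53, adjusted p = 0.00121), and its treated arrays lay far apart. Clec2g, a lectin gene, fell from 7.66 and 7.79 to 4.93 and 5.16 (-2.68 ± 0.24), and Cyp2r1, which adds the first hydroxyl group to vitamin D, from 8.15 and 8.33 to 5.52 and 5.79 (-2.58 ± 0.22). Etnppl, which breaks down phosphoethanolamine, fell by 2.64, and the desmoglein gene Dsg1c fell by 2.49. The treated arrays of all these genes lay below both untreated arrays, as the naming rule requires. Of the 15 calls, 5 ended without some arrays. Those of Cyp26a1, the main enzyme that clears retinoic acid (-3.02), Ppp1r3c, which brings a phosphatase to glycogen (-2.78), and Sdf2l1 (-2.53) ended without any 1 of the 4 arrays, at adjusted p of 0.0677 to 0.0813, 0.0557 to 0.196 and 0.0556 to 0.133. The call of Angptl8, a secreted inhibitor of lipoprotein lipase (-2.87), ended without untreated replicate 1 or either 2 h array (0.0891 to 0.138), and that of Keg1 (-2.78) without untreated replicate 2 or 2 h replicate 1 (0.0541 to 0.06).

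**Figure D2:**
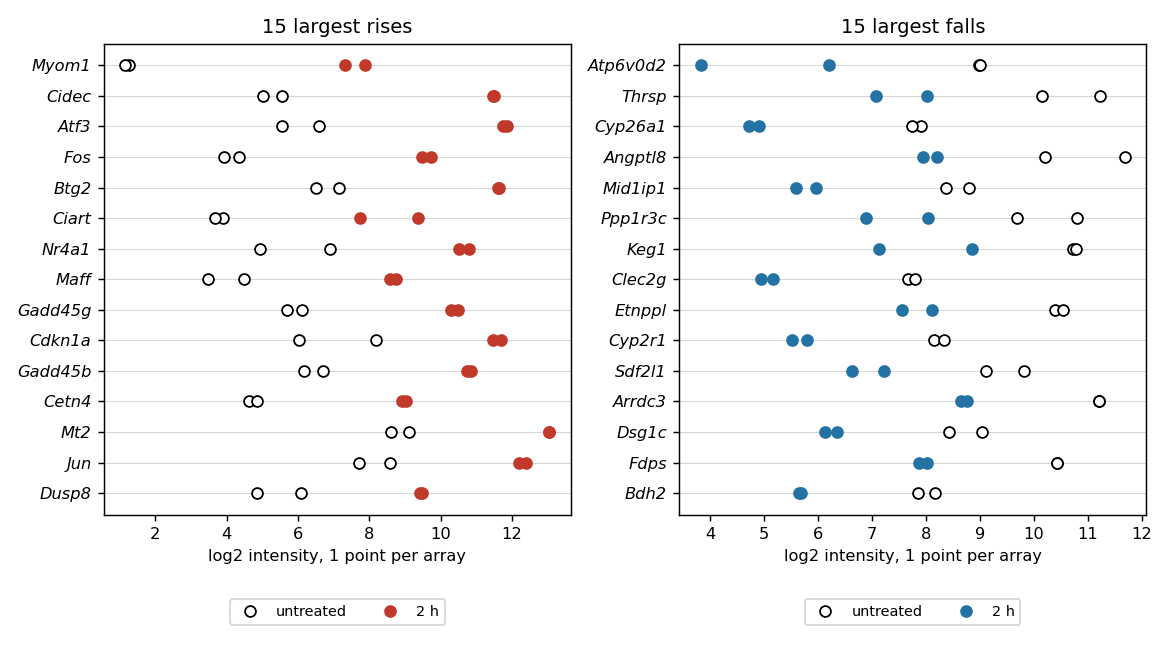
Log2 intensity in each array for the 15 largest rises (left) and the 15 largest falls (right) by the naming rule, with open circles for untreated and filled circles for 2 h wt arrays. For all 30 genes the groups are separate, as the naming rule requires. The treated arrays lie close together for Btg2 and Mt2 but far apart for Atp6v0d2.

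The AP-1 factors, dimers of FOS, JUN and ATF proteins that carry kinase signals to promoters, and the small MAF factors rose together. Of 13 measured members 9 rose and none fell (7, 7, 7 and 8 without 1 array), with a median of 1.63. Fos stood at 4.35 and 3.93 untreated and at 9.47 and 9.74 at 2 h (5.47 ± 0.32, 44.3-fold, adjusted p = 1.83e-05). Its dimer partner Jun went from 8.58 and 7.71 to 12.20 and 12.40 (4.15 ± 0.38), and Junb from 6.62 and 7.06 to 9.61 and 9.91 (2.92 ± 0.30). Atf3, which stress induces in many cell types, went from 6.59 and 5.56 to 11.75 and 11.86 (5.73 ± 0.39). In each of these genes the lowest treated array lay over 2 log2 units above the highest untreated one. Maff, a small MAF protein without a transactivation domain, went from 3.48 and 4.48 to 8.74 and 8.58 (4.68 ± 0.63), and Fosl2 rose by 2.21 ± 0.28. Fosb, the close relative of Fos, stood at 5.78 and 5.77 and then at 6.4 and 6.57, and its difference of 0.71 ± 0.57 did not pass (adjusted p = 0.466).

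Of 29 other immediate early genes, those switched on without new protein synthesis, 17 rose and none fell (15, 14, 14 and 14 without 1 array), with a median of 1.81. Egr1, a zinc finger factor induced by growth and stress signals, stood at 8.18 and 8.03 untreated and at 12.01 and 12.15 at 2 h (3.98 ± 0.44, adjusted p = 0.000464). Egr2 went from 5.44 and 5.49 to 7.88 and 8.35 (2.65 ± 0.25), while Egr3 stood at 6.00 and 5.86 and then at 6.24 and 6.15 and did not pass (0.27 ± 0.13, adjusted p = 0.218). Thus the 3 Egr genes measured did not share one size of change. Ier2 rose by 3.0 ± 0.22, Pim3, a serine kinase that promotes survival, by 2.67 ± 0.26, Zfp36, which speeds the decay of cytokine mRNAs, by 2.64 ± 0.29 and Sik1, a kinase that restrains CREB coactivators, by 1.71 ± 0.18. Plk3, a polo-like kinase, went from 8.57 and 8.26 to 11.99 and 11.83 (3.50 ± 0.39).

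Nr4a receptors, nuclear receptors that act without a known ligand, and Kruppel-like factors were more mixed, with 8 of 17 higher and 1 lower. Nr4a1 stood at 6.91 and 4.93 untreated and at 10.80 and 10.52 at 2 h (4.74 ± 0.64, adjusted p = 0.00127), with its untreated arrays about 2 log2 units apart. Nr4a2 rose by 1.15 ± 0.15, and Nr4a3 by 1.64 ± 0.42, though its call ended without any 1 array (adjusted p of 0.0654 to 0.171). Klf3 rose by 0.81 ± 0.14. Klf6, known as a wound-induced factor of liver, rose by 2.93 ± 0.52, but its call ended without 2 h replicate 1 (adjusted p = 0.0515). The calls of Klf9 (0.87) and of Klf12, the one that fell (-0.90), ended without any 1 array (0.0539 to 0.0774 and 0.0675 to 0.167). The count of risers was 4, 6, 3 and 4 without 1 array, and none was lower.

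Of 11 phosphatases that switch off MAP kinases 3 rose and 1 fell, 36.4% beside 12.7% of all tested genes (2, 1, 1 and 1 higher and none lower without 1 array). Dusp8, which acts on JNK and p38, stood at 6.08 and 4.84 untreated and at 9.41 and 9.49 at 2 h (4.0 ± 0.58, 16-fold, adjusted p = 0.00186). Dusp1, the phosphatase best known as an immediate early gene, went from 10.68 and 9.84 to 12.53 and 12.47 (2.24 ± 0.51), and its call ended without untreated replicate 2 or either 2 h array (0.084 to 0.132). The rise of Dusp5, which acts on ERK (3.42 ± 0.72), and the fall of Dusp7 (-0.75 ± 0.18) ended without any 1 array (0.0594 to 0.075 and 0.0729 to 0.128). Dusp4 and Dusp2 did not pass, at 0.36 ± 0.17 and 0.21 ± 0.14.

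Among 14 measured genes of the JNK pathway 5 rose and 1 fell (3, 2, 3 and 2 higher and none lower without 1 array). Map3k5, or ASK1, the redox-sensitive kinase that starts the cascade, stood at 8.83 and 8.81 untreated and at 10.17 and 10.15 at 2 h (1.34 ± 0.12, adjusted p = 0.000173). The groups were separate by far more than the spread within them. Jund, an AP-1 member, rose by 1.63 ± 0.26. The JNK1 gene Mapk8 rose by 0.36 ± 0.10, a call that ended without any 1 array (0.112 to 0.185), and the JNK2 gene Mapk9 did not pass (-0.04 ± 0.14). Sh3bp5, the mitochondrial docking protein of JNK, fell by 0.48, a call that also ended without any 1 array (0.0731 to 0.252).

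Ligands and feedback regulators of the EGF receptor rose in 4 of 18 members, with a median of 0.15 (2, 1, 2 and 1 without 1 array). Errfi1, which binds and inhibits the receptor, stood at 12.17 and 12.16 and then at 12.95 and 12.98 (0.80 ± 0.09, adjusted p = 0.000517), and its call was the one that no left-out array ended. The calls of Rgs1 (3.53) and Rgs16 (1.72), which quench G protein signals, ended without any 1 array (0.0763 to 0.11 and 0.0541 to 0.171), and that of Spred3 (0.61) without untreated replicate 2 or 2 h replicate 2 (0.0611 to 0.0675). The ligand genes Ereg and Hbegf did not pass, at 0.23 ± 0.12 and 0.56 ± 0.50. The 4 called genes were 22.2% of the list, beside 6.53% of all tested genes called higher.

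Stress and growth arrest genes rose strongly in a few members. The Gadd45 proteins are small stress sensors that bind cell cycle and MAP kinase regulators. Gadd45g stood at 6.11 and 5.70 untreated and at 10.48 and 10.29 at 2 h (4.48 ± 0.34, 22.3-fold, adjusted p = 6.01e-05). Gadd45b went from 6.16 and 6.71 to 10.85 and 10.75 (4.37 ± 0.35). Gadd45a, the p53-regulated member, stood at 6.13 and 6.38 and then at 7.29 and 7.38, and did not pass (1.08 ± 0.59, adjusted p = 0.271), so 2 of the 3 members were called.

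Of 22 measured p53 targets 7 rose and 1 fell, with a median of 0.32. Cdkn1a, the cell cycle inhibitor p21, stood at 8.18 and 6.02 untreated and at 11.46 and 11.68 at 2 h (4.47 ± 0.65, adjusted p = 0.00193), with its untreated arrays far apart. Btg2, an antiproliferative gene that is also immediate early, went from 7.16 and 6.50 to 11.63 and 11.61 (4.79 ± 0.39). Tnfrsf10b, the mouse TRAIL receptor, rose by 0.66 ± 0.11. The calls of Trp53inp1, an autophagy regulator (1.69 ± 0.33), and of Mdm2, the ligase that degrades p53 (1.12 ± 0.23), ended without untreated replicate 1 or 2 h replicate 1 (0.0513 to 0.0672), and without untreated replicate 2 or either 2 h array (0.0587 to 0.0902). Without 1 array, 6, 6, 5 and 5 members were called higher and none lower.

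Of 16 BCL2 family genes, which set the threshold of apoptosis, 3 rose (18.8%, beside 6.53% of all tested genes), and the median was 0.06. Bcl2l11, or BIM, a BH3-only killer protein, stood at 6.20 and 6.22 and then at 7.37 and 7.62 (1.29 ± 0.14, adjusted p = 0.000377). Bnip3, which marks mitochondria for removal, rose by 0.84 ± 0.13, and Bcl2l13 by 0.47 ± 0.10, the latter not without untreated replicate 2 or either 2 h array (0.0557 to 0.116). Bcl2, Bcl2l1 and Bcl2l2, which protect cells, did not pass, at 0.28, -0.03 and -0.27.

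Of 14 death receptor and necroptosis genes 4 rose and 1 fell, 35.7% beside 12.7% of all tested genes. Tnfrsf12a, the receptor for TWEAK, stood at 8.14 and 7.54 untreated and at 10.42 and 10.33 at 2 h (2.53 ± 0.18, adjusted p = 4.88e-05). Tnfrsf1b, the TNF receptor of myeloid and endothelial cells, rose by 0.83 ± 0.13. Tnfsf10, the gene of TRAIL, fell by 1.07, a call that ended without untreated replicate 2 or 2 h replicate 2 (0.0689 to 0.0785). Casp8, the initiator caspase, rose by 0.47 ± 0.10, but not without untreated replicate 2 or either 2 h array (0.0557 to 0.131). Fas, Fasl and Tnfrsf1a did not pass, at 0.29, -0.15 and -0.09.

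Enzymes that activate or conjugate APAP fell in 8 of 22 members and rose in 1, with a median of -0.41. The activating enzyme Cyp2e1 stood at 13.21 and 13.13 untreated and at 13.16 and 13.22 at 2 h, so its arrays overlapped, and Cyp3a11 differed by -0.08 ± 0.14. Ugp2, which makes the UDP-glucose needed for glucuronidation, fell from about 11 in both untreated arrays to 10.04 and 9.92 (-1.04 ± 0.17, adjusted p = 0.00323). Gsta3, a glutathione transferase, fell from 12.65 and 12.67 to 12.04 and 12.07 (-0.60 ± 0.10). These were the 2 falls among the named ones that did not depend on 1 array. Papss1 and Papss2 make the sulfate donor. The call of Papss1 (-0.91) ended without either untreated array or 2 h replicate 1 (0.0605 to 0.12), and that of Papss2 (-0.80) without either untreated array or 2 h replicate 2 (0.0568 to 0.118). Those of Gsta4 (-0.83) and of Cyp1a2, another activating enzyme (-0.66), ended without any 1 array (0.0523 to 0.12 and 0.0824 to 0.114), and the rise of Gstp1 (0.76), a glutathione transferase that also binds JNK, without either untreated array or 2 h replicate 2 (0.07 to 0.104). Without 1 array 2, 2, 4 and 3 members fell.

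Glutathione genes were balanced, with 3 of 22 higher, 3 lower and a median of -0.02. Glrx, a glutaredoxin that removes glutathione from proteins, stood at 9.94 and 10.09 and then at 11.10 and 11.27 (1.17 ± 0.12, adjusted p = 0.000342). Oplah, which recycles oxoproline to glutamate, rose by 0.86 ± 0.11, while a dimmer probe set of it, with a mean log2 of 5.37, differed by -0.21. For the subunits of the rate-limiting enzyme of glutathione synthesis, Gclc stood at 12.32 and 12.16 and then at 12.10 and 12.12 (-0.12 ± 0.13, not called), and Gclm fell from 11.44 and 11.51 to 10.94 and 11.04 (-0.48 ± 0.12). Neither subunit had risen at 2 h. The calls of Gclm, Pgd (-0.60), Gnmt (-0.55) and Gpx3 (0.88) ended without any 1 array, at adjusted p of 0.0726 to 0.144, 0.0554 to 0.149, 0.0794 to 0.143 and 0.0692 to 0.192. Without any 1 array 2 members rose and none fell.

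Other targets of NRF2, the factor that senses electrophiles through KEAP1, rose in 4 of 27 members and fell in 1, at a median of -0.05, and the calls of the 4 did not end without any 1 array. The share called in either direction was 18.5%, beside 12.7% of all tested genes. Srxn1, which repairs overoxidised peroxiredoxins, stood at 7.90 and 7.97 untreated and at 10.17 and 10.55 at 2 h (2.43 ± 0.21, adjusted p = 0.000129). Hmox1, heme oxygenase, went from 8.25 and 8.38 to 9.99 and 9.93 (1.64 ± 0.24). Txnrd1, thioredoxin reductase, rose by 0.76 ± 0.13 and Sqstm1, the autophagy receptor p62, by 0.83 ± 0.09. At 6 h against the same untreated arrays, these 4 stood at 4.42, 3.80, 2.31 and 1.42. Tkt, a pentose phosphate enzyme, fell by 0.75, but not without untreated replicate 2 or 2 h replicate 1 (0.0588 to 0.0632). The regulator genes Nfe2l2 and Keap1 did not pass, at -0.24 ± 0.13 and 0.17 ± 0.09.

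Export pumps were split, with 3 of 12 higher and 3 lower. Abcb4, which moves phospholipid into bile, stood at 10.68 and 10.75 and then at 11.72 and 11.78 (1.03 ± 0.13, adjusted p = 0.000842). Abcb11, the bile salt export pump, fell from 11.81 and 11.78 to 10.93 and 10.82 (-0.92 ± 0.12). Thus 2 canalicular pumps moved in opposite directions, with no overlap of arrays in either. Abcc6 fell by 0.76, and the rises of Abcc2 (0.48), which exports conjugates into bile, and Abcc10 (0.35) and the fall of Abcb1a (-0.95) ended without some arrays (0.0587 to 0.0729 without untreated replicate 1 or either 2 h array, 0.0762 to 0.215 without any 1 array, and 0.0883 to 0.321 without untreated replicate 2 or either 2 h array). Without 1 array 1, 2, 1 and 1 pumps rose and 3, 2, 2 and 2 fell.

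In the rest of bile acid synthesis and transport, Akr1d1, a reductase of the bile acid pathway, fell from 11.23 and 11.38 to 9.76 and 9.34 (-1.75 ± 0.23, adjusted p = 0.00111). Fgfr4, the receptor that carries the FGF15 signal to the liver, fell from 9.36 and 9.31 to 8.29 and 8.5 (-0.94 ± 0.11). Of the 26 members 5 fell and 3 rose (4, 3, 3 and 3 lower and 1, 2, 1 and 1 higher without 1 array). Cyp7a1, the rate-limiting enzyme, did not pass (-0.74 ± 0.51), and neither did Cyp8b1 (0.23 ± 0.17) or Cyp27a1 (-0.04 ± 0.11). Baat, which joins bile acids to taurine, fell by 0.67, but not without untreated replicate 2 or either 2 h array (0.0515 to 0.0649).

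Metallothioneins, small proteins that bind zinc and copper and trap radicals, rose while zinc transporters mostly did not. Mt1 stood at 8.58 and 8.52 untreated and at 12.19 and 12.20 at 2 h (3.65 ± 0.11, 12.5-fold, adjusted p = 1.5e-07), the smallest spread among the large rises described here. Mt2 went from 8.60 and 9.11 to 13.05 and 13.03 (4.18 ± 0.40). Mt3, the brain form, stood at 6.00 and 5.98 and then at 6.23 and 6.27 and did not pass (0.25 ± 0.13). Slc39a5, a zinc importer, rose by 0.71 ± 0.14, but not without untreated replicate 2 or either 2 h array (0.058 to 0.079), and Slc30a1, the zinc exporter that zinc induces, did not pass (0.44 ± 0.18). In all, 3 of 15 members rose and none fell (3, 2, 2 and 2 without 1 array).

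Upstream sequences of several genes were searched for an assigned motif. Those of Mt1 and Mt2 are shown because they held a metal response element core, and that of Btg2 a cyclic AMP response element. Each holds the 250 bases before the gene's start, 5′ to 3′ on the gene's strand, from RefSeq, GRCm38.p6, at chr8:94178839-94179088 (plus strand), chr8:94172368-94172617 (plus strand) and chr1:134079156-134079405 (minus strand). Capitals mark the core of the metal response element, TGCNCNC on either strand, in Mt1 and Mt2 and TGACGTCA in Btg2.
Mt1: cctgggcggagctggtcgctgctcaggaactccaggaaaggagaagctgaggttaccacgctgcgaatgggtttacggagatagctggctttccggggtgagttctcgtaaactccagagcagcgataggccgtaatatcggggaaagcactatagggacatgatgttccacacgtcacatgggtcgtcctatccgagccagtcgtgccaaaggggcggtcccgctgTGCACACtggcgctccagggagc
Mt2: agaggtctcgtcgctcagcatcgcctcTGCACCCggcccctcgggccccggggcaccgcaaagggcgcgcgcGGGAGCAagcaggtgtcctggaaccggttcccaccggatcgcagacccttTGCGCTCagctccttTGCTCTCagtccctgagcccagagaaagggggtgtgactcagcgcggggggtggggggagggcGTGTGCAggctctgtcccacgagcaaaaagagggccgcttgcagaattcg
Btg2: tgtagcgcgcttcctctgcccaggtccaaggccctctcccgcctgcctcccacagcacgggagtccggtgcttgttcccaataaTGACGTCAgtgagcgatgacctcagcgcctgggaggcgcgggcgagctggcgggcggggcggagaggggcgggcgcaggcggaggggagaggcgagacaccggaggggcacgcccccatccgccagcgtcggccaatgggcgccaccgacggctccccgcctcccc

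The Mt2 window held 5 matches of the metal element core, the Mt1 window held 1, and the Btg2 window held 1 full cyclic AMP element. The metal core is a loose pattern. Of the 13408 tested genes whose promoter entries were searched, 53.4% held it. The shares were 55.1% of 247 genes called at least 2-fold higher and 52.5% of 158 called at least 2-fold lower. Promoter entries on 1 chromosome were left out of the search, so no motif share here covers its genes. The full cyclic AMP element was rarer, in 2.53% of all, in 15 of the 247 higher genes (6.07%) and in none of the 158 lower ones. Of the AP-1 and phosphatase lists, the windows of Maff, Dusp1 and Dusp8 held it.

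Other motifs were searched on both strands, with bases allowed to belong to more than 1 match. Their shares in all, higher and lower genes were 13.2%, 19.0% and 15.8% for the antioxidant element core TGACNNNGC, and 8.66%, 12.1% and 8.86% for the E-box CACGTG. They were 6.59%, 7.69% and 9.49% for the AP-1 site TGANTCA, and 6.48%, 6.88% and 6.33% for the heat shock element GAANNTTC. The CArG box, the element of serum response factor, stood at 1.38%, 3.24% and 1.9%. The sterol element TCACNCCAC stood at 1.28%, 1.62% and 3.16%, the glucocorticoid response element at 0.365%, 1.21% and 0.633%, and the direct repeat that PPARs bind at 0.0447% of all with no match in either set. These shares are descriptions with no test, and a match is not evidence that a factor was bound. The other upstream windows searched for an assigned motif held no match of it. These were those of Fos, Atf3 and Per1 for the full cyclic AMP element, and of Dnajb1 for the heat shock element. Srebf1 likewise held no sterol element and Acot1 no direct repeat.

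Heme and iron genes were balanced, with 3 of 23 higher and 3 lower (2, 1, 1 and 1 higher and 1, 0, 1 and 1 lower without 1 array), and beside Hmox1 the named calls depended on single arrays. Alas1, the rate-limiting enzyme of heme synthesis, stood at 11.85 and 10.74 and then at 12.37 and 12.59 (1.18 ± 0.27), and its call ended without untreated replicate 2 or either 2 h array (0.0588 to 0.114). Cpox (0.55) and Alad (-0.50), enzymes of the same pathway, were called in opposite directions, and both calls ended without any 1 array (0.112 to 0.2 and 0.124 to 0.233). Ppox fell by 0.72, but not without untreated replicate 2 or 2 h replicate 1 (0.0765 to 0.0927). Hamp, the gene of hepcidin, which limits iron export, fell by 0.68, but not without either untreated array or 2 h replicate 2 (0.0596 to 0.0984).

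Targets of BMP-SMAD signalling, the pathway that sets hepcidin, fell in 3 of 12 members, with a median of -0.31 (1, 2, 2 and 1 without 1 array). Id2, an inhibitor of helix-loop-helix factors, stood at 12.16 and 11.90 untreated and at 10.25 and 10.29 at 2 h (-1.76 ± 0.16, adjusted p = 0.000152). Atoh8 fell by 0.51, a call that ended without any 1 array (0.0723 to 0.149). Id3, at 9.18 and 8.28 and then 7.90 and 7.50, missed the threshold (-1.03 ± 0.31, adjusted p = 0.0559), as did Smad7, the feedback inhibitor (-0.98 ± 0.36), and Id1 (-0.38 ± 0.33).

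Chaperones of the cytosol and mitochondria rose in 5 of 20 members, with a median of 0.36. Dnajb1, the main HSP40, stood at 8.31 and 7.15 untreated and at 10.03 and 10.86 at 2 h (2.71 ± 0.44, adjusted p = 0.00319). The other 4 calls depended on single arrays, and 5, 1, 2 and 2 members were called without 1 array. Hsp90aa1 rose by 0.79, but not without untreated replicate 2 or 2 h replicate 2 (0.0503 to 0.0541), and Hspb1 by 1.88, but not without untreated replicate 2 or 2 h replicate 1 (0.0643 to 0.0654). A dim probe set of Hspb1, with a mean log2 of 5.39, differed by -0.21. The rises of Hspb8 (1.05) and Hspa4 (0.47) ended without untreated replicate 2 or either 2 h array (0.0661 to 0.11 and 0.137 to 0.272). At 6 h against the same untreated arrays, Dnajb1 stood at 4.55 and Hspb1 at 5.21.

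Folding and degradation genes of the endoplasmic reticulum went the other way in most of the called members, with 9 of 25 lower and 2 higher and a median of -0.34. Herpud1, part of the degradation complex in the membrane, stood at 11.17 and 11.27 and then at 12.29 and 12.35 (1.10 ± 0.11, adjusted p = 0.000298). Pdia6, a disulfide isomerase, fell from 10.72 and 10.53 to 9.38 and 9.57 (-1.15 ± 0.17). Hspa5, the chaperone BiP that defines this response, stood at 11.97 and 11.57 and then at 11.41 and 11.63, with overlapping arrays (-0.25 ± 0.16, not called), and Hsp90b1 did not pass either (-0.20 ± 0.14). The calls of Pdia3 (-0.70), without untreated replicate 1 or 2 h replicate 1, and Edem1 (-0.56), without untreated replicate 1 or 2 h replicate 2, ended at 0.0522 to 0.0705 and 0.0575 to 0.0583, and that of the sensor gene Atf6 (0.52) without any 1 array (0.101 to 0.15). Without 1 array 1, 3, 2 and 4 members fell and 2, 1, 1 and 1 rose.

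Of 23 genes of the integrated stress response, in which phosphorylated eIF2 favours translation of ATF4, 6 rose and 1 fell. Atf4 stood at 9.47 and 9.05 and then at 10.06 and 10.14 (0.84 ± 0.15, adjusted p = 0.00511). Cebpb went from 7.43 and 8.05 to 9.64 and 9.73 (1.94 ± 0.24). The hormone gene Fgf21 went from 6.32 and 5.62 to 8.96 and 10.02 (3.52 ± 0.56), and its treated arrays differed by about 1 log2 unit. Ppp1r15a, which restores eIF2, rose by 2.03, and Ddit4, an inhibitor of mTOR, by 1.24, but neither without untreated replicate 2 or either 2 h array (0.058 to 0.0704 and 0.0866 to 0.143). Trib3 rose by 1.23, but not without any 1 array (0.0503 to 0.099). Without 1 array 5, 3, 3 and 3 members rose and 0, 0, 0 and 1 fell.

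Amino acid transporters changed in 5 of 21 members, 3 higher and 2 lower (2, 2, 2 and 3 higher and none lower without 1 array). Called members were 23.8% of the list, beside 12.7% of all tested genes. Slc38a2, which takes up small neutral amino acids, stood at 10.77 and 10.74 and then at 12.31 and 12.31 (1.55 ± 0.18, adjusted p = 0.000546). Slc6a9, a glycine transporter, went from 8.79 and 9.26 to 10.71 and 10.93 (1.80 ± 0.23). Slc7a2, which carries arginine, rose by 0.83, but not without either untreated array or 2 h replicate 1 (0.0519 to 0.113). The falls of Slc1a4 (-0.88) and Slc36a1 (-0.66) ended without any 1 array (0.0785 to 0.147 and 0.068 to 0.296).

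Lipid genes were called in large shares of their lists, in opposite directions for oxidation and synthesis. PPAR-alpha is the fatty acid receptor that drives oxidation genes in fasted liver, SREBP1c and ChREBP drive fatty acid synthesis after feeding, and SREBP2 drives cholesterol synthesis. Of 33 measured oxidation genes and other PPAR-alpha targets 24 rose and none fell (16, 21, 17 and 20 without 1 array), with differences of 0.13 to 3.40 and a median of 0.68. Acot1, a thioesterase that releases fatty acids from CoA, stood at 8.09 and 8.09 untreated and at 11.42 and 11.36 at 2 h (3.30 ± 0.21, adjusted p = 2.39e-05). Acot2, its mitochondrial relative, went from 9.70 and 10.21 to 12.80 and 12.62 (2.75 ± 0.24), and Vnn1, a pantetheinase, from 9.20 and 8.68 to 12.15 and 12.53 (3.40 ± 0.28). The peroxisomal genes Pex11a and Ehhadh rose by 1.84 ± 0.16 and 1.17 ± 0.12, and the mitochondrial isomerase gene Eci1 by 0.93 ± 0.11. The arrays of these 6 genes did not overlap, and in KO liver the same 6 differed by 0.67 to 3.29. The receptor gene Ppara itself stood at 10.84 and 11.27 and then at 11.40 and 11.45 and did not pass (0.37 ± 0.18), nor did its coactivator genes Ppargc1a (0.44 ± 0.37) and Ppargc1b (0.44 ± 0.19).

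Of 8 ketone body genes none was called higher and 1 fell (12.5%, near the 12.7% of all tested genes), with a median of 0.31. Bdh2, a cytosolic dehydrogenase, stood at 7.86 and 8.17 and then at 5.69 and 5.65 (-2.34 ± 0.22, adjusted p = 0.000184). Bdh1, the mitochondrial dehydrogenase of ketogenesis, differed by 0.07 ± 0.16.

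Proteins of the lipid droplet and its lipases rose in 12 of 21 members and fell in none (11, 11, 10 and 11 without 1 array). Beside Cidec, the coat protein gene Plin4 stood at 5.97 and 5.74 untreated and at 9.21 and 9.18 at 2 h (3.34 ± 0.27, adjusted p = 8.36e-05). Plin5, which ties droplets to mitochondria, went from 8.20 and 8.14 to 10.78 and 10.72 (2.58 ± 0.16), and Plin2, the main coat protein of liver droplets, from 11.56 and 11.63 to 12.83 and 12.79 (1.22 ± 0.10). The arrays of each group lay within 0.3 log2 units of each other in these 3 genes. The lipases rose as well, Pnpla2, which starts triglyceride breakdown, by 1.87 ± 0.16 and Mgll, which ends it, by 0.97 ± 0.10. Plin1, the coat protein of fat cells, rose by 0.53, but not without any 1 array (0.0576 to 0.101), and Plin3 did not pass (0.67 ± 0.23). Of 6 measured fat tissue markers Plin1 was the one called. Their mean log2 was 6.25 to 6.4 untreated and 6.35 to 6.56 at 2 h, and Adipoq and Lep differed by -0.01 and -0.11.

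Fatty acid synthesis fell in 14 of 23 members and rose in 1 (11, 9, 9 and 10 lower without 1 array), with a median of -0.67. Srebf1, the gene of SREBP1, stood at 9.80 and 10.13 untreated and at 7.70 and 7.87 at 2 h (-2.18 ± 0.17, adjusted p = 7.51e-05). Acly, which makes cytosolic acetyl-CoA, went from 10.52 and 10.85 to 8.49 and 8.44 (-2.22 ± 0.21), and Mid1ip1, which helps acetyl-CoA carboxylase to polymerise, from 8.79 and 8.37 to 5.96 and 5.58 (-2.81 ± 0.30). Thrsp, a lipogenic protein induced by feeding, went from 10.16 and 11.23 to 8.01 and 7.08 (-3.15 ± 0.51). In all 4 the groups lay far apart. Elovl6, which lengthens palmitate, fell by 2.14 ± 0.29. Acss2, which makes acetyl-CoA from acetate, differed by -1.51 ± 0.18, Mlxipl, the gene of ChREBP, by -1.26 ± 0.18, and Acaca, the carboxylase itself, by -0.96 ± 0.21, and all 3 were called. The call of Acaca ended without untreated replicate 2 or either 2 h array (0.0673 to 0.108).

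Cholesterol synthesis and uptake genes had the lowest median of the functional lists, at -1.04, with 16 of 26 lower and 1 higher (12, 8, 10 and 9 lower and none higher without 1 array). Fdps, which makes farnesyl diphosphate, stood at 10.44 and 10.43 untreated and at 7.87 and 8.01 at 2 h (-2.49 ± 0.33, adjusted p = 0.00121). Sc5d, which acts late in the pathway, went from 12.06 and 11.98 to 10.62 and 10.40 (-1.51 ± 0.12), and Stard4, a cholesterol carrier, from 9.32 and 9.40 to 8.0 and 7.88 (-1.42 ± 0.16). The mevalonate pathway genes Mvk and Pmvk fell by 1.11 ± 0.17 and 1.21 ± 0.17, and Dhcr7, the last enzyme, by 1.0 ± 0.14. Insig1, which holds SREBPs in the endoplasmic reticulum and is itself their target, fell by 1.08 ± 0.24, but not without untreated replicate 2 or either 2 h array (0.0715 to 0.125). The regulators Srebf2 and Scap did not pass, at -0.34 ± 0.20 and -0.00 ± 0.10.

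**Figure D3:**
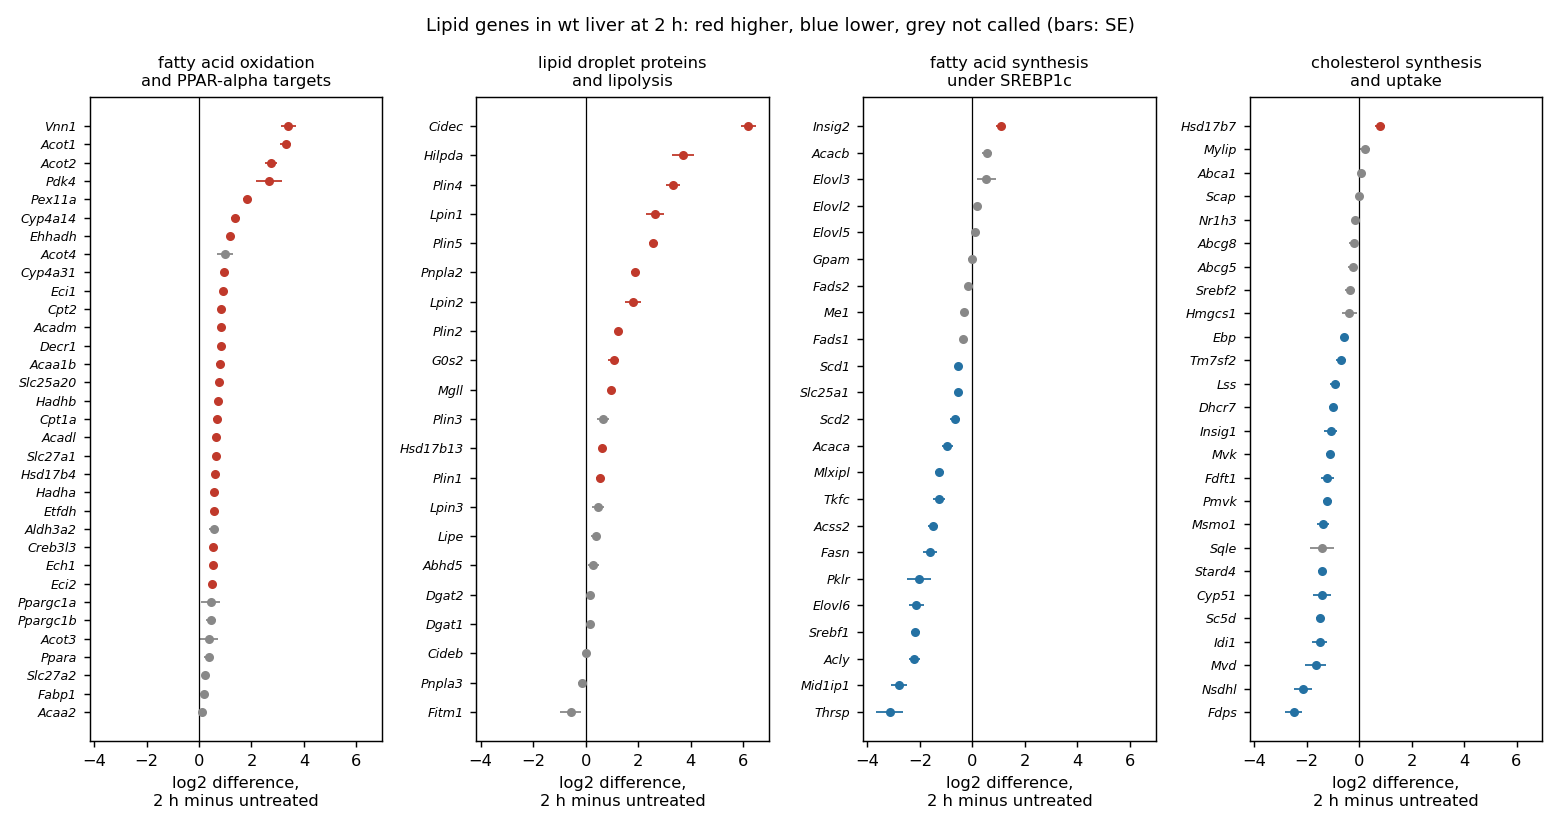
Log2 difference of wt liver at 2 h minus untreated for every measured gene of the 4 lipid lists, with bars for the standard error of the fit. Red points are genes called higher, blue points genes called lower and grey points genes not called. Oxidation and droplet genes lie at or right of 0 with few exceptions, and most synthesis genes lie left of it.

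Genes under insulin and FOXO1 control went both ways, with 6 of 29 higher and 5 lower (3, 5, 3 and 4 higher and 4, 2, 2 and 4 lower without 1 array). Igfbp1, a secreted IGF-binding protein that insulin represses, stood at 9.06 and 9.29 untreated and at 11.92 and 12.15 at 2 h (2.86 ± 0.24, 7.27-fold, adjusted p = 0.000109). Foxo1 went from 9.42 and 9.33 to 10.72 and 10.68 (1.33 ± 0.14), and Pck1, the entry enzyme of gluconeogenesis, from 12.32 and 12.23 to 12.97 and 12.97 (0.70 ± 0.11). These 3 rose with no overlap of arrays, which held for every called gene. Arrdc4, an alpha-arrestin, fell by 1.12 ± 0.18, and Slc2a9, a urate transporter, by 0.78, though not without untreated replicate 2 or 2 h replicate 1 (0.0511 to 0.0614). The insulin receptor substrates Irs2 and Irs1 did not pass, at 1.07 ± 0.34 and -0.87 ± 0.28.

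Of 19 genes known to be induced by glucocorticoids 15 rose and 1 fell (13, 10, 9 and 10 higher and none lower without 1 array), with a median of 1.83. Some of them also belong to the early gene, metallothionein and acute phase lists. Like the other lists, this one was chosen with earlier results of these data known, so its share is no test. Fkbp5, a co-chaperone of the receptor, stood at 6.73 and 7.30 untreated and at 9.52 and 9.77 at 2 h (2.63 ± 0.33, adjusted p = 0.000912). Cebpd, a factor of the acute phase, went from 4.55 and 4.70 to 7.61 and 7.82 (3.09 ± 0.38). The receptor gene Nr3c1 fell from 9.78 and 9.87 to 9.32 and 9.26 (-0.53 ± 0.15, adjusted p = 0.0445), though its call ended without any 1 of the 4 arrays (0.111 to 0.209). Tsc22d3, the receptor target known as GILZ, stood at 9.23 and 8.92 and then at 8.81 and 8.85, and did not pass (-0.25 ± 0.21), so not every classical target moved.

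In the circadian clock 3 of 19 genes rose and none fell (3, 2, 2 and 2 without 1 array). The called genes are 15.8% of the list, near the 12.7% of all tested genes. Per1, a repressor that also answers acute signals, stood at 6.86 and 6.05 untreated and at 8.75 and 8.55 at 2 h (2.20 ± 0.31, adjusted p = 0.00148). Ciart rose as given above, and Csnk1e, a kinase of the PER proteins, by 1.0, but not without any 1 array (0.0531 to 0.107). The activators Clock, Arntl and Npas2 did not pass, at 0.29 ± 0.16, -0.75 ± 0.40 and -0.79 ± 0.79, and Npas2 differed by over 2 log2 units between the untreated arrays (9.41 and 7.02).

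Factors of hepatocyte identity fell in 4 of 14 members and rose in none (3, 2, 2 and 2 without 1 array), with a median of -0.36. Foxa2, a pioneer factor of liver genes, stood at 8.54 and 8.24 untreated and at 6.56 and 6.82 at 2 h (-1.70 ± 0.23, adjusted p = 0.00144). Hhex, a homeobox factor, went from 9.63 and 8.97 to 7.18 and 7.56 (-1.94 ± 0.31). Hnf4a, the factor that defines hepatocytes, did not pass (0.12 ± 0.12), nor did Cebpa (-0.36 ± 0.14). The falls of Nr5a2 (-0.49) and Tbx3 (-0.74) ended without untreated replicate 2 or either 2 h array (0.0819 to 0.123), and without any 1 array (0.0928 to 0.184).

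Nuclear receptors changed in 4 of 25 members, 1 higher and 3 lower, and in a fit without 1 array none rose and 1, 0, 0 and 0 fell. The share called was a little above the 12.7% of all tested genes. The share called higher lay below the 6.53% of all tested genes, and that called lower above the 6.17%. Nr1i2, the xenobiotic receptor PXR, stood at 9.91 and 10.16 and then at 10.70 and 10.63 (0.63 ± 0.16, adjusted p = 0.0299). Esr1, the estrogen receptor, fell by 1.20 and Nr2f2 by 0.63. These 3 calls ended without any 1 array, at 0.0621 to 0.168, 0.0859 to 0.225 and 0.0772 to 0.109. Pparg and Ppard did not pass, at -0.11 and -0.35.

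Hepatocytes around the central vein make the reactive metabolite, while those around the portal tract hold the urea cycle. Of 25 perivenous genes 8 fell and none rose, with a median of -0.46 (1, 2, 1 and 1 lower without 1 array). Rgn, or regucalcin, stood at 12.23 and 12.16 untreated and at 11.47 and 11.38 at 2 h (-0.77 ± 0.13, adjusted p = 0.00401). Glul, glutamine synthetase, which is confined to the innermost cells, stood at 11.74 and 11.80 and then at 11.79 and 12.14 and did not pass (0.19 ± 0.29). Cyp2e1, another common marker of the zone, was not called either. The falls of Cyp2c54 (-0.60) and Gstm3 (-0.56) ended without any 1 array (0.0693 to 0.0966 and 0.119 to 0.161). In bulk liver, fewer cells of a type and less RNA for each cell cannot be told apart.

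Periportal genes went both ways, with 6 of 23 higher and 9 lower (4, 3, 3 and 4 higher and 6, 4, 5 and 3 lower without 1 array). Apoa4, an apolipoprotein, stood at 11.04 and 11.39 and then at 13.02 and 13.14 (1.87 ± 0.13, adjusted p = 4.66e-05). Aldh1b1, a mitochondrial aldehyde dehydrogenase, fell from 8.55 and 8.69 to 7.15 and 6.72 (-1.68 ± 0.20). Nags, which makes the activator of the urea cycle, fell by 0.82 ± 0.10, and Cdh1, E-cadherin, by 1.05 ± 0.17. The urea cycle genes Cps1 and Asl did not pass, at 0.05 ± 0.10 and 0.34 ± 0.18.

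Of 22 secreted hormones 6 rose and 3 fell (6, 4, 3 and 4 higher and 0, 1, 1 and 1 lower without 1 array). Beside Fgf21 and Igfbp1, the activin gene Inhbe stood at 10.09 and 9.89 untreated and at 11.55 and 11.96 at 2 h (1.77 ± 0.21, adjusted p = 0.000654). At 6 h against the same untreated arrays Inhbe differed by -0.50. Inhbb, another activin gene, rose by 1.76, but not without untreated replicate 2 or 2 h replicate 1 (0.0504 to 0.0567), Angptl4, an inhibitor of lipoprotein lipase, by 1.83, but not without either 2 h array (0.0557 to 0.0599), and Enho fell by 1.04, but not without either untreated array or 2 h replicate 1 (0.06 to 0.118).

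Hypoxia and glycolysis genes rose in 5 of 28 members and fell in 2 (3 higher without any 1 array, and 2, 1, 1 and 2 lower). Adm, the peptide adrenomedullin, stood at 3.78 and 4.20 and then at 6.18 and 5.93 (2.06 ± 0.28, adjusted p = 0.00126). Pdk1, which blocks pyruvate oxidation and is a classical target of HIF-1, fell from 9.52 and 9.61 to 8.32 and 8.38 (-1.22 ± 0.17). Aldoa, an aldolase, rose by 0.88 ± 0.13. Hif1a did not pass (0.30 ± 0.17), while Epas1, the HIF-2 gene, rose by 0.56 and the glycolytic Pfkl fell by 0.49, calls that ended without any 1 array (0.0634 to 0.0769) and without untreated replicate 2 or 2 h replicate 1 (both 0.121).

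Of 25 acute phase proteins, which the liver secretes in inflammation, 5 rose and 3 fell, 32.0% beside 12.7% of all tested genes, at a median of -0.08 (4 higher without any 1 array, and 0, 0, 1 and 0 lower). Lcn2, a protein that keeps iron from bacteria, stood at 7.74 and 8.04 untreated and at 10.58 and 10.66 at 2 h (2.72 ± 0.22, adjusted p = 9.26e-05). Cd14, the coreceptor for endotoxin, went from 5.25 and 5.24 to 8.76 and 8.54 (3.41 ± 0.34), and Lrg1 from 10.11 and 10.15 to 11.55 and 11.87 (1.58 ± 0.19). In these 3 genes the groups were well separate. Hp, haptoglobin, rose by 0.75 ± 0.10, and Lbp, which hands endotoxin to Cd14, by 0.52, but not without any 1 array (0.0503 to 0.0929). The serum amyloid genes Saa2 and Saa3 did not pass, at -0.57 ± 0.75 and -0.04 ± 0.22.

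Of 20 genes of IL-6 type signalling 3 rose and 1 fell (1 higher and none lower without any 1 array), and Il1r1, the IL-1 receptor, stood at 8.92 and 8.70 and then at 10.80 and 10.49 (1.84 ± 0.24, adjusted p = 0.000974). The called members were 20.0% of the list, beside 12.7% of all tested genes. Il6 stood at 5.83 and 5.93 and then at 5.91 and 5.76, with overlapping arrays. A second, dimmer probe set of Socs3, with a mean log2 of 7.04, differed by -0.06. The calls of Socs3, a feedback inhibitor (0.92), Il6ra (0.58) and Lifr (-0.69) ended without any 1 array, at 0.0682 to 0.123, 0.0842 to 0.124 and 0.054 to 0.221.

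NF-kB feedback and cytokine genes changed in 6 of 31 members, 4 higher and 2 lower (1, 2, 1 and 2 higher without 1 array). Tnfaip2 stood at 8.39 and 8.47 untreated and at 6.36 and 6.39 at 2 h (-2.06 ± 0.16, adjusted p = 6.01e-05), and Il18, a cytokine of the inflammasome, fell from 7.67 and 8.08 to 6.54 and 5.90 (-1.66 ± 0.22). Nfkbiz, an inducible cofactor, rose from 7.41 and 6.99 to 8.79 and 8.97 (1.69 ± 0.28). The largest changes of the list thus pointed both ways. Of the list 19.4% was called, beside 12.7% of all tested genes. Il1a rose by 2.25, but not without any 1 array (0.0561 to 0.0737), Nfkbia, the inhibitor that NF-kB induces, by 0.94, but not without untreated replicate 1 or either 2 h array (0.0709 to 0.107), and Vcam1 by 0.78, but not without either untreated array or 2 h replicate 1 (0.122 to 0.292).

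Chemokines rose in 1 of 21 members and fell in 4 (1 higher without any 1 array, and 3, 1, 3 and 1 lower). Ccl6 stood at 7.22 and 7.51 and then at 9.08 and 8.77 (1.56 ± 0.17, adjusted p = 0.000464). Cxcl12, the homing signal for cells with CXCR4, fell from 10.96 and 10.99 to 9.72 and 9.71 (-1.26 ± 0.11). Cxcl2, which attracts neutrophils, stood at 3.76 and 3.23 untreated and at 8.69 and 8.88 at 2 h, and this difference of 5.29 ± 1.63 missed the threshold (adjusted p = 0.06), although the groups were far apart. The wide error is that of the fit over all 6 groups. Ccl2 and Ccl3 did not pass, at 0.92 ± 0.54 and 1.06 ± 0.63. The falls of Ccl9 (-0.73), Cxcl11 (-1.35) and Cxcl9 (-1.52) ended without untreated replicate 2 or 2 h replicate 2 (0.0691 to 0.0709), without untreated replicate 2 or either 2 h array (0.0577 to 0.0834), and without either untreated array or 2 h replicate 2 (0.0774 to 0.185).

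Interferon-induced genes fell in 9 of 33 members (27.3%, beside 6.17% of all tested genes) and rose in 1, with a median of -0.20 (8, 5, 5 and 7 lower and none higher without 1 array). Irf1 stood at 8.14 and 8.57 untreated and at 6.97 and 6.89 at 2 h (-1.42 ± 0.15, adjusted p = 0.0004), while a dimmer probe set of it, with a mean log2 of 5.77, differed by 0.09. Gbp7, a guanylate-binding protein, fell from 8.94 and 9.34 to 7.66 and 7.68 (-1.47 ± 0.16). Ddx58, the RNA sensor RIG-I, fell by 0.75 ± 0.13 and Psmb8, an immunoproteasome subunit, by 0.79 ± 0.13. The falls of Gbp2 (-1.17) and Irf5 (-0.74) ended without untreated replicate 2 or 2 h replicate 2 (0.0572 to 0.0667) and without untreated replicate 1 or 2 h replicate 1 (0.0511 to 0.0775). Irf2 and Irf3 did not pass, at -0.18 and 0.01.

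Some markers of other liver cells were called, to be read beside the 12.7% of all tested genes called in either direction. The shares called were 6.67% for neutrophil, 7.14% for sinusoidal endothelial and 14.3% for stellate markers. They were higher for lymphocyte and NK cell markers (18.2%) and for the 3 erythroid markers (33.3%). Of Kupffer cell markers 18.8% fell, beside 6.17% of all tested genes. These lists are small, and their shares were not tested. Kupffer cell markers fell in 3 of 16 members and rose in 1, with a mean log2 of 8.28 to 8.33 untreated and 8.05 to 8.20 at 2 h. Among them Adgre1, the F4/80 antigen, fell by 0.83, Csf1r by 0.60 and Timd4 by 0.61, while Clec4f did not pass (0.07 ± 0.15). The fall of Adgre1 ended without untreated replicate 2 or 2 h replicate 2 (0.051 to 0.0521), and those of Csf1r and Timd4 without any 1 array (0.0673 to 0.118 and 0.112 to 0.176). Cd163, a scavenger receptor, rose by 0.66, but not without 2 h replicate 1 (0.052). What part these cells had in the falls of chemokine and interferon genes was not tested.

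Neutrophil markers stood at a mean log2 of 5.76 to 5.77 untreated and 6.17 to 6.20 at 2 h, and Lcn2, which hepatocytes also make, was the 1 of 15 called. S100a8 and S100a9, abundant proteins of these cells, differed by 0.19 ± 0.24 and 0.44 ± 0.26. Of 11 lymphocyte and NK cell markers Cd3e rose, from 5.80 and 5.97 to 7.88 and 7.54 (1.83 ± 0.19, adjusted p = 0.000334), but Cd3d, of the same receptor complex, did not pass (0.23 ± 0.22). Cd79b, of B cells, fell by 0.48, but not without untreated replicate 2 or 2 h replicate 2 (0.0547 to 0.0621). Sinusoidal endothelial markers fell in 1 of 14 (Gpr182, -0.71, ended without any 1 array at 0.0976 to 0.115) and stellate markers in 2 of 14 (Lrat, -1.46, ended without any 1 array at 0.0669 to 0.125, and Col3a1, -0.59, ended without either untreated array or 2 h replicate 2 at 0.136 to 0.279). Slc4a1, an anion exchanger of red cells, rose by 1.20, 1 of 3 erythroid markers, but not without untreated replicate 1 or either 2 h array (0.0513 to 0.124). Of 4 bile duct and 5 pancreas markers limma called none, and none had an unadjusted p under 0.05.

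Coagulation genes rose in 2 of 23 members and fell in 5, at a median of -0.17, and none rose and 1, 1, 0 and 1 fell without 1 array. Thbs1, a matrix protein of platelets and injured tissue, stood at 5.19 and 5.21 and then at 8.32 and 8.39 (3.16 ± 0.71, adjusted p = 0.0163), and Thbd, thrombomodulin, rose by 2.08 ± 0.46. Both calls ended without any 1 array (0.0719 to 0.0886 and 0.0701 to 0.0877), although the groups did not overlap. Serpinf2, the plasmin inhibitor, fell by 0.80, a call that ended without 2 h replicate 1 (0.0576). F13b (-0.48), F7 (-0.61) and Serpind1 (-0.60) fell in calls that ended without any 1 array (0.0671 to 0.1, 0.0628 to 0.123 and 0.06 to 0.146). The tissue factor gene F3 did not pass (0.24 ± 0.39).

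Lists of growth and of mitochondrial function held no larger share of calls than the 12.7% of all tested genes. The shares called were 7.69% for ribosome biogenesis, 12.5% for cyclins and cell cycle genes and 3.03% for the respiratory chain. Ribosome biogenesis genes rose in 2 of 26 members, at a median of 0.35 (6, 0, 1 and 0 without 1 array). Polr1b, a subunit of RNA polymerase I, rose by 0.59, but not without either untreated array or 2 h replicate 2 (0.0537 to 0.183), and Rrp1b by 0.51, but not without any 1 array (0.0916 to 0.177). Their mean log2 was 8.28 and 7.88 in the untreated arrays and 8.31 and 8.52 at 2 h, so untreated replicate 1 lay close to the treated arrays. Of 32 cyclins and cell cycle genes 3 rose and 1 fell (2, 3, 2 and 2 higher and none lower without 1 array). Beside Cdkn1a, Ccnl1, a cyclin of splicing, rose from 8.68 and 8.66 to 10.11 and 10.03 (1.41 ± 0.16, adjusted p = 0.000447). The calls of Ccnb2 (0.80) and Ccng1 (-0.44) ended without untreated replicate 1 or either 2 h array (0.135 to 0.19) and without any 1 array (0.11 to 0.225), and Ccnd1 did not pass (0.33 ± 0.29). Of 33 respiratory chain genes 1 fell, Sdha, by 0.34, but not without any 1 array (0.143 to 0.199). That is 3.03% of the list beside 12.7% of all tested genes, and the members ranged from -0.41 to 0.21.

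**Figure D4:**
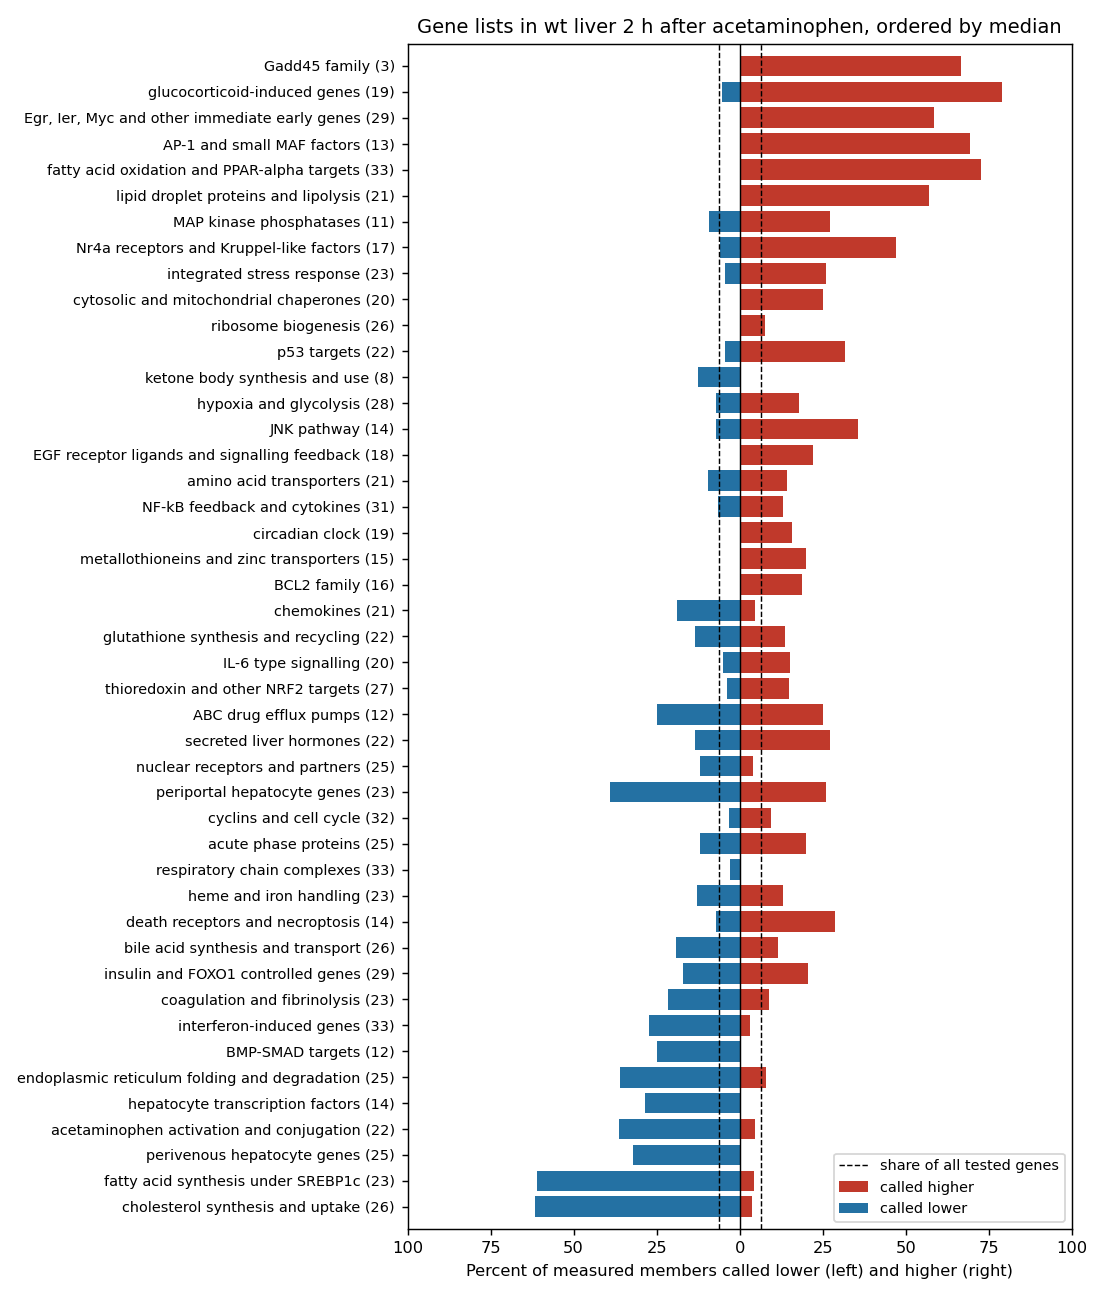
Percent of the measured members of each functional list (number measured in brackets) called lower, left of 0, and higher, right of 0, in wt liver at 2 h, with lists ordered by their median log2 difference. Dashed lines mark the shares of all tested genes, 6.53% higher and 6.17% lower. The lists were chosen with earlier results of these data known, so a bar beyond a line is no test. The early gene, glucocorticoid, fatty acid oxidation and droplet lists extend far to the right, and the fatty acid and cholesterol synthesis lists far to the left.

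Whether the response depended on the genotype was tested on the difference between both responses at 2 h (KO minus wt), from 8 arrays. Of 17052 genes, 5 passed (0.0293%), against 2606 with an unadjusted p under 0.05. All 5 had also been called in wt liver at 2 h. Cetn4, which rose in wt as given above, stood at 4.48 and 4.42 in untreated KO liver and at 5.20 and 5.62 at 2 h, so its response was smaller in KO (-3.27 ± 0.24, adjusted p = 0.00089). Sftpa1, a surfactant protein gene, stood at 5.91 and 6.23 and then 8.23 and 8.10 in wt, and at 6.19 and 6.4 and then 5.76 and 5.99 in KO (-2.52 ± 0.29, adjusted p = 0.0167). Col12a1, a collagen gene, went from 5.23 and 5.34 to 7.07 and 7.31 in wt, and from 5.73 and 5.49 to 5.35 and 5.52 in KO (-2.07 ± 0.19, adjusted p = 0.00393). All 3 rose in wt and stayed near their untreated level, or rose far less, in KO. For Cetn4 this rests on the probe set tested, since a second one differed by only 0.64 in wt.

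The other two had fallen in wt liver. Id2 stood at 11.58 and 11.65 in untreated KO liver and at 11.88 and 11.38 at 2 h (1.77 ± 0.22, adjusted p = 0.0369). Arrdc3, an alpha-arrestin that controls receptor traffic, stood at 11.21 and 11.22 and then at 8.77 and 8.65 in wt, and at 9.52 and 9.77 and then at 10.90 and 10.20 in KO (3.41 ± 0.33, adjusted p = 0.00501). Its untreated KO arrays already lay below the untreated wt arrays. The count moved with single arrays. Among the wt arrays, leaving out untreated replicate 1 gave 3 genes and leaving out 2 h replicate 2 gave 2. Among the KO arrays, 11 and 3 genes passed when untreated replicate 1 or 2 was left out, 3 and 33 when 2 h replicate 1 or 2 was, and 18 when 6 h replicate 2 was, an array that enters through the spread alone.

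Several other genes that changed strongly in wt did not pass this test. Gadd45g already stood at 8.59 and 9.63 in untreated KO liver, and its response difference of -3.51 ± 0.48 missed the threshold (adjusted p = 0.0508). Hmox1 stood at 12.25 and 11.92 in KO liver at 2 h (2.18 ± 0.34, adjusted p = 0.0715), and Egr2 at 10.41 and 10.75 (2.48 ± 0.36, adjusted p = 0.0525). Foxa2 and Hhex, which fell in wt, differed by -0.38 and -0.26 in KO, with response differences of 1.33 ± 0.33 (adjusted p = 0.174) and 1.68 ± 0.44 (adjusted p = 0.187). For these genes a difference between genotypes was therefore not shown.

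**Figure D5:**
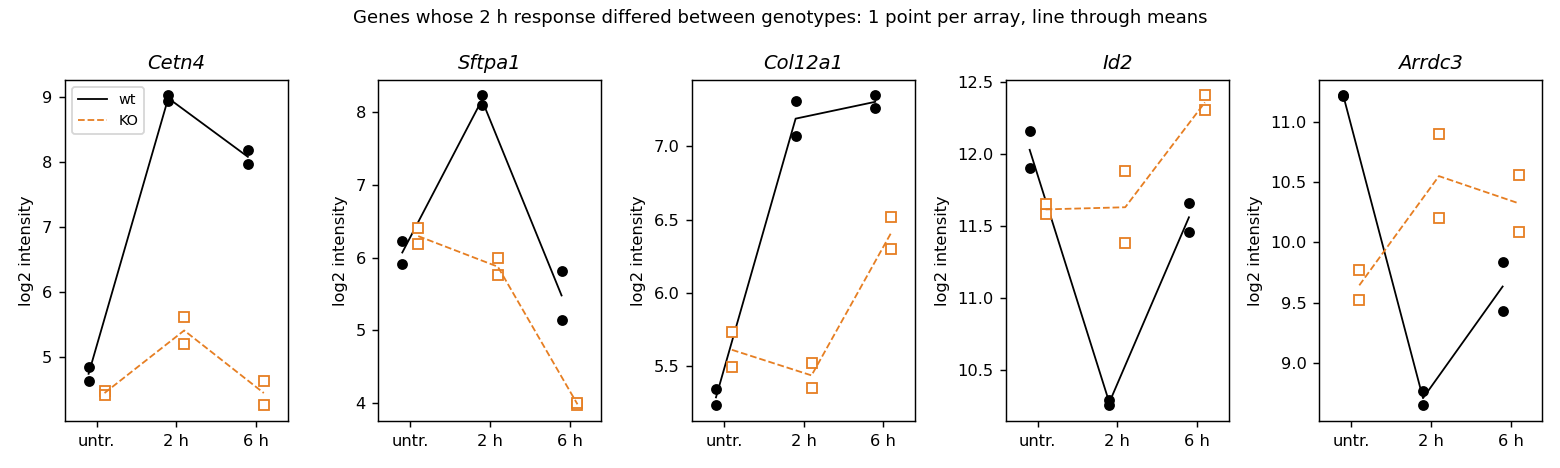
Log2 intensity in each array of the 5 genes whose response at 2 h differed between genotypes, untreated and 2 h and 6 h after APAP, with filled circles and solid lines for wt, open squares and dashed lines for KO, and lines through the means of 2 arrays. At 2 h Cetn4, Sftpa1 and Col12a1 lie higher in wt than in KO, and Id2 and Arrdc3 lie lower.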

How the data were processed

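Gene expression was measured in 12 mouse liver samples on Affymetrix Mouse Gene 1.1 ST arrays, 2 in each of 6 groups. RMA in Affymetrix Expression Console was used by the authors, per the labels (versions not given in the sources used here), and the deposited values are normalized intensity values on a linear scale, with array medians of 79.9 to 90.1. The number of arrays limits the precision, and all 12 were used.

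Values were log2 transformed without a pseudocount. Of 35556 probe sets, 21218 carried 1 symbol, 1881 several and 12457 none, by GEO's platform annotation, and the last 2 kinds were not used. Tested genes had a probe set with 1 symbol and a mean log2 of at least 5 over all arrays, and the probe set with the highest mean stood for each of the 1386 genes with several. Of the 17052 genes, 17025 had an identifier in the RefSeq table (GRCm38.p6), and no symbol changed.

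Means of 6 groups were fitted in limma 3.58.1 (R 4.3.3, lmFit and eBayes, 6 residual and 4.33 prior degrees of freedom), with two-sided p-values adjusted over all tested genes by the Benjamini-Hochberg method. The 55 lists held 1083 genes, of which 971 were tested, 6 of them found by synonym. A gene can be in several lists. The members and lists were chosen with earlier results of these data known, and lists are described by counts and medians with no test. The genes named are Pml, the 15 largest rises and falls among called genes with separate arrays, up to 6 members of each list with the smallest p, uncalled genes among the first 3 of a list, and genes called for the response difference, with 7 others named after their values were seen (Egr1, Nr4a3, Acaca, Insig1, Nr3c1, Gm15441 and Mir122). The fit was tested on simulated data. Alternatives were another filter, quantile normalization, a pseudocount of 16, means of probe sets, a variance trend, the compared groups alone, a replicate block, and arrays left out. Crossed replicate numbers and left-out KO arrays were added after seeing the data. Replicate numbers were not taken as pairs: deviations of same-numbered arrays correlated at -0.134 to 0.185 over 15 pairs of groups.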

Additional observations from a re-analysis of the deposited data

Results flagged for a closer look

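The response at 2 h differed between genotypes in 5 genes, by the test of the KO response minus the wt response over all tested genes. On the log2 scale this difference was -3.27 for Cetn4, -2.52 for Sftpa1 and -2.07 for Col12a1, which responded less in KO liver, and 1.77 for Id2 and 3.41 for Arrdc3, which fell in wt liver. In KO liver Id2 was not called (0.02), and Arrdc3 rose (0.91 ± 0.23, adjusted p = 0.0147 by limma). Cetn4 has a second probe set of similar level (mean log2 of 5.82), whose difference in wt was 0.64 beside 4.23 for the one tested. The genotype difference of that second probe set was not tested. The untreated KO arrays of Arrdc3 (9.52 and 9.77) lay below the untreated wt arrays (11.21 and 11.22). No group held enough arrays for a test of single outlying arrays.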

How the results depend on the processing

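No gene named as called, in the rule's set or outside it, changed sign under an alternative run. The median over all genes, 0.02, was -0.02 with a mean log2 of at least 7 and -0.01 with quantile normalization, and lower calls outnumbered higher ones in these fits (1089 against 992, and 1140 against 1104), in the compared groups alone (1263 against 1245) and with log2 of the value plus 16 (1172 against 1165). The 2166 genes called in wt liver at 2 h became 2060 to 2337 under the alternatives that kept every array. Of these, no filter gave 2060 and log2 of the value plus 16 gave 2337. A fit of the compared groups alone, which left out the arrays of the other groups, gave 2508. Leaving out any 1 array of those tried gave 800 to 2288 in all, 460 to 1176 higher and 303 to 1112 lower, with the 4 compared wt arrays at 800 to 1163. Such a fit has fewer samples. The replicate number as a block gave 2188, and the crossed replicate block 2135. Among the 311 genes that the naming rule covers, 225 were called, and only these could lose a call. Of 311 named genes, 70 to 90 lost their call without 1 wt array, and 5 lost and 4 gained a call under the replicate block. The 5 genes called for the response difference were 23 in a fit of the compared groups alone, 11 with a variance trend, 11 with the crossed replicate block, 8 with log2 of the value plus 16, 1 with a mean log2 of at least 7, 4 with the replicate block and 2 to 33 without 1 array. The filter at a mean log2 of 7 left out Cetn4, Sftpa1 and Col12a1, whose means lie below it. These genes were therefore not tested in that fit. The cause of the other shifts was not tested. On simulated data the wt comparison recovered 87% of 100 genes changed 2-fold and 96% of 100 changed 4-fold. The response difference recovered 55% and 93% of the same genes, which were changed in the wt 2 h arrays alone. It was thus planted in far more genes than the 5 called, so these shares do not give its recovery in the real data.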
